A study of Mus musculus with 6 samples.

Results

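The enzymes of glycolysis, of pyruvate and lactate conversion and of the citrate cycle were examined in the transcriptomes of fully-grown oocytes (FGOs). The group held 40 named genes of the 24255 listed in the deposited expression table, and each was found there by its symbol: 15 enzymes of glycolysis, 11 of pyruvate and lactate conversion, and 14 of the citrate cycle. FGOs at the germinal vesicle (GV) stage have finished growth and are arrested in prophase of the first meiosis. RNA-Seq libraries were made from 3 samples of wild type (WT) and 3 samples of Lsm14b-knockout (Lsm14b-KO) oocytes, with 20 oocytes in each. LSM14B is an RNA-binding protein, and the KO animals were homozygous for Lsm14b tm1a(KOMP)Mbp, a reporter-tagged insertion present in every cell of the animal, on a C57BL/6J background. All mice, WT and KO, were primed with PMSG, which stimulates the growth of follicles, at 5 IU, and oocytes were taken 46 h later. The labels give no age for the mice, nor do they say whether the libraries of a group came from separate animals, so the p-values measure only the spread between these samples, which may be technical.

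Glycolysis splits glucose in the cytosol and ends in pyruvate. Lactate dehydrogenase interconverts pyruvate and lactate, and the pyruvate dehydrogenase complex inside mitochondria turns pyruvate into acetyl-CoA, which citrate synthase passes to the citrate cycle. The mouse oocyte is known for poor use of glucose and for its dependence on pyruvate, much of which is supplied by the surrounding cumulus cells. The question was how the mRNAs of these steps compare in level within the oocyte, and how they differ between WT and Lsm14b-KO FGOs.

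Levels are given as FPKM, sequenced fragments relative to the length of the transcript and to all mapped fragments. Different genes are set side by side on that scale. Other differences between genes, such as GC content or reads shared with copies, were not corrected in it, so orders and ratios of genes are of FPKM. The FPKM sums ran from 1141324 to 1244182 in the WT libraries and from 564671 to 1029728 in the Lsm14b-KO libraries. Depth relative to WT replicate 1, estimated from the steps between the lowest values, ran from 1 to 1.14 in WT and from 1.33 to 2.17 in Lsm14b-KO. The targeted gene Lsm14b was at 2.77, 3.98 and 1.72 FPKM in WT and at 0, 0 and 0.102 FPKM in Lsm14b-KO, as labelled. Lsm14b-KO replicate 1 stood nearer to the WT libraries (Pearson's r of log2(FPKM + 1) across tested genes 0.952 to 0.954) than to Lsm14b-KO replicate 2 (0.917), although its nearest library was Lsm14b-KO replicate 3 (0.960). All 10 oocyte markers, such as Gdf9 and Zp3, were expressed, and 6 of 6 red blood cell genes were at 0 in every library. Of 15 cumulus and granulosa cell markers 6, among them Amh and Foxl2, were at 0 in every library. The summed level of the 15 ran from 9.89 to 13.5 FPKM in WT and from 6.23 to 10.4 FPKM in Lsm14b-KO, and the part of these cells in the results was not tested. The largest contributor was Cyp19a1, the aromatase of granulosa cells, at 11.5, 8.26 and 10.5 FPKM in WT and at 5.47, 3.005 and 5.76 FPKM in Lsm14b-KO (adjusted p 0.0426 in limma, 0.309 with libraries scaled to a common total). Fshr, the receptor for follicle-stimulating hormone, lay the other way, at 1.68, 0.526 and 0.349 FPKM in WT and at 2.07, 1.91 and 1.82 FPKM in Lsm14b-KO (adjusted p 0.0923, and 0.0378 with that scaling), and Kitl, at most 0.559 FPKM, was also higher in every Lsm14b-KO library. Fewer cells of a type and less RNA per cell cannot be told apart in such pooled samples.

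Among the 40 genes, those of pyruvate and lactate conversion had the highest summed mRNA levels and those of glycolysis the lowest. Ldhb, the lactate dehydrogenase B subunit, held 90.3% to 95.5% of the summed FPKM of the 40 genes in each library. Without it, the other 10 genes of pyruvate and lactate conversion summed to 171 to 202 FPKM in WT and 177 to 230 FPKM in Lsm14b-KO libraries. The 14 citrate cycle genes summed to 61.2 to 76.7 FPKM in WT and to 81.1 to 89.4 FPKM in Lsm14b-KO libraries. Aconitase and succinate dehydrogenase are not among these 14. Sdhd alone, a subunit of the latter, was at 691, 613 and 566 FPKM in WT. In Lsm14b-KO it was at 523, 185 and 301 FPKM, so its direction was opposite to that of the sum. The 15 glycolysis genes summed to 16.3 to 17.2 FPKM in WT and to 22.6 to 31.0 FPKM in Lsm14b-KO libraries. The glycolysis sum was 0.212 to 0.266 of the sum of the 14 citrate cycle genes in WT and 0.279 to 0.347 of it in Lsm14b-KO libraries. These within-library ratios did not overlap. The median gene, by its mean over 6 libraries, was at 0.102 FPKM for glycolysis, 3.65 FPKM for pyruvate and lactate conversion, and 2.78 FPKM for the citrate cycle.

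**Figure D1:**
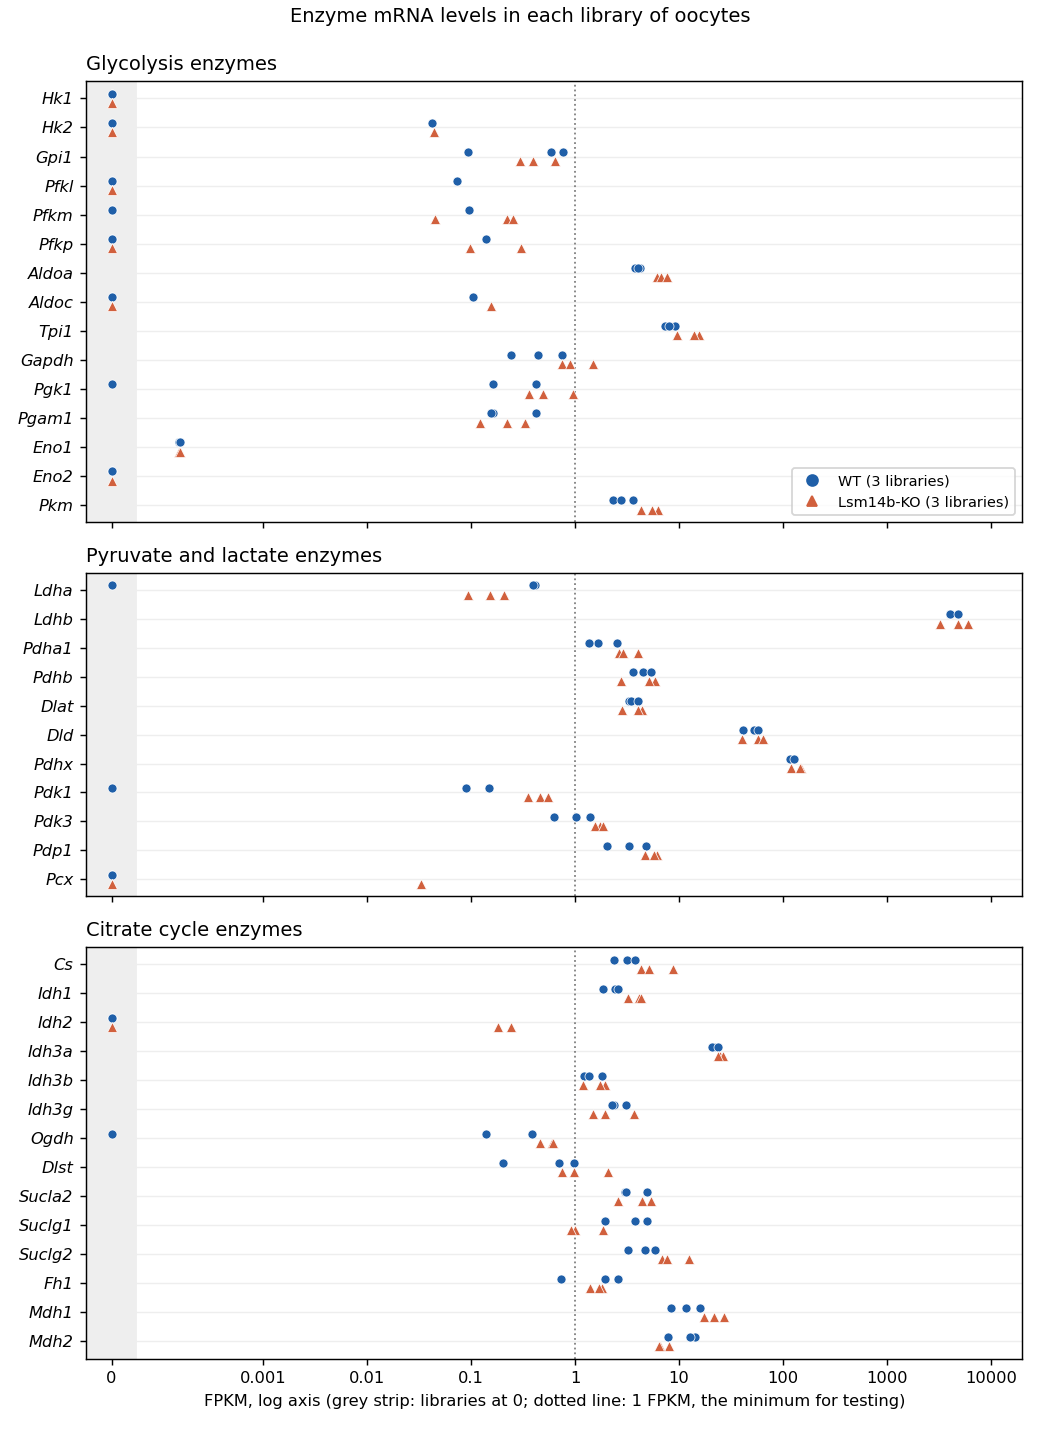
FPKM of the 40 enzymes (log axis) in each WT (circles) and Lsm14b-KO (triangles) library, in 3 panels by step; the grey strip holds values of 0 and the dotted line marks 1 FPKM. Ldhb stands far to the right at 3247 to 5989 FPKM, while 11 of 15 glycolysis enzymes stay under 1 FPKM in every library.

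The order of the levels was clear only at its top. Ldhb came first with a mean of 4490.0 FPKM over the 6 libraries, and its lowest library lay above every value of Pdhx (mean 130.2 FPKM). Pdhx in turn did not overlap with Dld (mean 52.2 FPKM), nor Dld with Idh3a (mean 23.4 FPKM). Below that, Idh3a, Mdh1 (17.1 FPKM), Tpi1 (10.6 FPKM) and Mdh2 (9.27 FPKM) each overlapped with the next in the order. Of the 40 enzymes, these 7 had the highest mean levels, and only Tpi1 among them belongs to glycolysis.

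Glycolysis is entered through hexokinases, which phosphorylate glucose, and is committed by phosphofructokinases. Hk1 was listed at 0 in all 6 libraries, and Hk2 was at 0.0420 FPKM in WT replicate 2, at 0.0442 FPKM in Lsm14b-KO replicate 3, and at 0 elsewhere. In the steps of the lowest values these correspond to 1 and 2 fragments. The phosphofructokinases Pfkl, Pfkm and Pfkp stayed at or under 0.301 FPKM in every library, and Gpi1, the isomerase between both steps, at 0.0928 to 0.765 FPKM. A value of 0 can be a failed estimate: of 84 cytosolic ribosomal protein genes, which every cell uses, 13 were listed at 0 in at least 1 library.

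The lower part of glycolysis was uneven. Gapdh, the glyceraldehyde phosphate dehydrogenase often used as a reference gene, was at 0.753, 0.436 and 0.241 FPKM in WT and at 0.747, 0.900 and 1.48 FPKM in Lsm14b-KO. By the steps of the lowest values these correspond to 3, 2 and 1 fragments in WT and 4, 7 and 13 in Lsm14b-KO. An estimate from transcript length gave 3.94, 2.61 and 1.3 in WT and 5.2, 9.19 and 16.9 in Lsm14b-KO. Transcripts of 78 other annotated genes, 75 of them pseudogenes, matched Gapdh over 200 nt or more with an identity of 95% and above. Pgk1, the phosphoglycerate kinase that yields ATP, was at 0.161, 0.423 and 0 FPKM in WT and at 0.363, 0.497 and 0.960 FPKM in Lsm14b-KO, and has 4 such copies. Pgam1, the mutase of the next step, stayed within 0.121 to 0.423 FPKM in all libraries. Eno2 was at 0 throughout. Eno1 was listed at about 0.00016 FPKM in every library, while its near-identical copy Eno1b was at 1.26 to 2.95 FPKM, so the level of enolase mRNA is uncertain. Aldoc, the second aldolase, reached no more than 0.157 FPKM.

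Aldoa, Tpi1 and Pkm stood apart from these. Aldoa, the main aldolase (chromosome 7, 126795234 to 126800751, minus strand, GRCm38/mm10, overlapping Fam57b on the other strand), was at 3.80, 4.23 and 4.07 FPKM in WT. It was at 6.14, 6.71 and 7.60 FPKM in Lsm14b-KO. Every Lsm14b-KO library lay above every WT library. Tpi1, the triose phosphate isomerase (chromosome 6, 124810586 to 124814296, minus strand, overlapping Spsb2), was at 9.08, 7.25 and 8.03 FPKM in WT and at 9.61, 15.7 and 13.9 FPKM in Lsm14b-KO. Lsm14b-KO replicate 1 was close to the highest WT library there, and the other 2 were well above it. Pkm, the pyruvate kinase that closes glycolysis (chromosome 9, 59656368 to 59679375, plus strand), was at 2.32, 2.74 and 3.60 FPKM in WT and at 4.27, 6.26 and 5.49 FPKM in Lsm14b-KO. Its groups did not overlap either. Tpi1 and Pkm each have 1 near-identical pseudogene copy, as do Gpi1, Pgam1, Ldhb, Pdhb and Suclg2, and reads could be shared with it.

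Lactate dehydrogenase mRNA was almost wholly of the B type, whose subunit favours the conversion of lactate into pyruvate. Ldhb (chromosome 6, 142490249 to 142507957, minus strand, no overlapping gene) was at 4059.8, 4060.2 and 4816 FPKM in WT and at 5989, 3247 and 4768 FPKM in Lsm14b-KO. The highest and the lowest of the 6 values were both Lsm14b-KO libraries, and by level Ldhb ranked between place 34 and place 62 of all genes in each library. Ldha, which encodes the A subunit typical of lactate-producing tissues, was at 0.408, 0 and 0.393 FPKM in WT and at 0.152, 0.209 and 0.0930 FPKM in Lsm14b-KO, or 2, 0, 2, 1, 2 and 1 fragments. The ratio of Ldha to Ldhb within a library was at most 0.0001. Ldha has 4 near-identical pseudogene copies, with which its reads could be shared. As a share of the library's FPKM sum, Ldhb took 0.326%, 0.346% and 0.422% in WT and 0.582%, 0.575% and 0.705% in Lsm14b-KO. By that share the groups did not overlap, although they did in FPKM.

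Within the pyruvate dehydrogenase complex the subunits differed widely in level. Pdhx, which tethers the dihydrolipoamide dehydrogenase to the core of the complex, was at 124, 117 and 126 FPKM in WT and at 119.9, 149 and 145 FPKM in Lsm14b-KO. Dlat, the acetyltransferase that forms most of that core, was at 2.81 to 4.37 FPKM, so that Pdhx exceeded it 31.5-fold to 37.9-fold in WT and 27.5-fold to 53.1-fold in Lsm14b-KO libraries. Dld, the dihydrolipoamide dehydrogenase shared with other mitochondrial complexes, was at 52.6, 41.0 and 57.8 FPKM in WT and at 40.3, 57.5 and 64.2 FPKM in Lsm14b-KO. In none of these 3 genes did the genotypes separate. The decarboxylating component is built from an alpha and a beta subunit. Pdha1, the alpha subunit, was at 2.52, 1.68 and 1.37 FPKM in WT and at 2.65, 4.03 and 2.92 FPKM in Lsm14b-KO, with no overlap. Pdhb, the beta subunit, was at 2.78 to 5.83 FPKM with overlapping groups.

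Kinases switch the pyruvate dehydrogenase complex off and phosphatases switch it on. Pdk3, a kinase, was at 1.02, 0.633 and 1.40 FPKM in WT and at 1.74, 1.56 and 1.86 FPKM in Lsm14b-KO. Pdk1, another kinase, was at 0, 0.0897 and 0.149 FPKM in WT and at 0.462, 0.551 and 0.354 FPKM in Lsm14b-KO. Both kinases were higher in every Lsm14b-KO library than in any WT library. The Pdk1 values correspond to 0, 2 and 3 fragments in WT and 12, 21 and 15 in Lsm14b-KO, which is below the 1 FPKM required for testing, and in a fit with no such minimum its adjusted p was 0.0643 in limma. Pdp1, the phosphatase, was at 2.01, 3.30 and 4.79 FPKM in WT and at 4.74, 6.20 and 5.68 FPKM in Lsm14b-KO, where the lowest Lsm14b-KO library fell just under the highest WT library. Pcx, the carboxylase that makes oxaloacetate from pyruvate, was at 0 in 5 of 6 libraries and at 0.0333 FPKM in Lsm14b-KO replicate 2.

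Of the tested citrate cycle enzymes, Cs, Idh1, Idh3a, Suclg2 and Mdh1 were higher in every Lsm14b-KO library than in any WT library, without passing the test. Cs, citrate synthase (chromosome 10, 128337734 to 128362479, plus strand), was at 3.14, 3.78 and 2.38 FPKM in WT and at 4.28, 8.72 and 5.14 FPKM in Lsm14b-KO. Idh1, the cytosolic isocitrate dehydrogenase that makes NADPH (chromosome 1, 65158616 to 65186500, minus strand), was at 2.40, 1.87 and 2.56 FPKM in WT and at 3.22, 4.14 and 4.34 FPKM in Lsm14b-KO. Neither pair of groups overlapped. Its mitochondrial counterpart Idh2 was at 0 in 4 libraries, and the other two, Lsm14b-KO replicates 2 and 3, had 0.180 and 0.240 FPKM.

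The NAD-dependent isocitrate dehydrogenase, the enzyme of the cycle proper, has a catalytic alpha subunit and beta and gamma subunits. Idh3a, the alpha subunit, was at 21.5, 20.6 and 23.5 FPKM in WT and at 24.6, 26.4 and 23.9 FPKM in Lsm14b-KO. The groups were separate but lay close together. Idh3b was at 1.20 to 1.95 FPKM and Idh3g at 1.50 to 3.69 FPKM, both with overlapping groups, so that Idh3a exceeded Idh3b 11.9-fold to 20.5-fold over the 6 libraries. The oxoglutarate dehydrogenase complex follows, and its mRNAs were low. Ogdh, its decarboxylase, was at 0, 0.139 and 0.384 FPKM in WT and at 0.596, 0.609 and 0.456 FPKM in Lsm14b-KO, under the minimum for testing. Dlst, its succinyltransferase, was at 0.201, 0.703 and 0.973 FPKM in WT and at 0.754, 2.06 and 0.969 FPKM in Lsm14b-KO.

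Succinyl-CoA ligase pairs a common alpha subunit, Suclg1, with an ATP-forming (Sucla2) or a GTP-forming (Suclg2) beta subunit, and these differed in direction. Suclg1 (chromosome 6, 73248382 to 73276911, plus strand, no overlapping gene) was at 3.81, 4.87 and 1.94 FPKM in WT and at 1.00, 0.919 and 1.84 FPKM in Lsm14b-KO. It was the only one of the 40 genes with every Lsm14b-KO library below every WT library, by a narrow margin between WT replicate 3 and Lsm14b-KO replicate 3. Over all tested genes, 26.0% lay lower in this way. Suclg2 (chromosome 6, 95473009 to 95718800, minus strand) was at 4.71, 3.22 and 5.89 FPKM in WT and at 12.5, 6.89 and 7.61 FPKM in Lsm14b-KO, again without overlap. Sucla2 overlapped, at 3.00, 3.10 and 4.89 FPKM in WT and 2.56, 5.33 and 4.45 FPKM in Lsm14b-KO. Fh1, fumarate hydratase, was at 0.738, 2.57 and 1.96 FPKM in WT and at 1.38, 1.80 and 1.69 FPKM in Lsm14b-KO, with the Lsm14b-KO libraries inside the WT range.

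The malate dehydrogenases also lay in opposite directions. Mdh1, the cytosolic enzyme of the malate-aspartate shuttle (chromosome 11, 21556787 to 21572367, minus strand, overlapping Wdpcp and Gm22990), was at 11.8, 8.32 and 16.0 FPKM in WT and at 17.4, 21.8 and 27.0 FPKM in Lsm14b-KO. Mdh2, the mitochondrial enzyme of the cycle (chromosome 5, 135778480 to 135790398, plus strand), was at 14.2, 7.77 and 12.7 FPKM in WT and at 7.96, 6.62 and 6.44 FPKM in Lsm14b-KO. Mdh1 separated by genotype, and Mdh2 overlapped through WT replicate 2 and Lsm14b-KO replicate 1. Whether the libraries keep the strand was not given, so reads of overlapping genes such as Wdpcp and Mdh1 cannot be told apart with certainty.

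The differences were tested with limma on log2(FPKM + 1) over the 6398 genes that reached 1 FPKM in any library. Of the 40 enzymes 24 reached that minimum: 4 of 15 for glycolysis, 8 of 11 for pyruvate and lactate conversion and 12 of 14 for the citrate cycle. Gapdh and Dlst reached it only in Lsm14b-KO libraries. None of the 24 passed an adjusted p of 0.05 (limma, Benjamini-Hochberg), against 21.6% of all tested genes, with 6.38% called higher and 15.2% called lower in Lsm14b-KO. At an unadjusted p under 0.05 there were 9 of 24 (37.5%), against 39.4% of all tested genes. No difference of these enzymes between the genotypes was therefore shown by the test. The intervals given here hold for the deposited scaling and a pseudocount of 1 only, and other scalings can give values outside them. With libraries scaled to a common total, the log2 difference of Aldoa was 1.23, above the upper end of its interval (1.09).

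The direction of the uncalled differences can be described. Gapdh and Dlst are left out here, since they entered the test only through high Lsm14b-KO values. In 17 of the other 22 enzymes the log2 difference was above 0, against 46.8% of all tested genes. The groups did not overlap with Lsm14b-KO higher in 10 of the 22, against 19.1% of all tested genes, and with Lsm14b-KO lower in 1, Suclg1, against 26.0%. Pdk1 and Ogdh, below the minimum for testing, also had all Lsm14b-KO libraries higher, but are not part of these counts. No share over genes below that minimum was taken. Both genes were at 0 in WT replicate 1, and the Lsm14b-KO libraries were deeper by the estimate above. The median log2 difference was 0.17 over the 22 enzymes, 0.32 with Gapdh and Dlst included, and -0.08 over all tested genes. By step the median was 0.63 for 3 glycolysis enzymes, 0.13 for 8 of pyruvate and lactate conversion and 0.11 for 11 of the citrate cycle. Without Lsm14b-KO replicate 2 the citrate cycle median, with Dlst below the minimum for testing there, was 0.0035.

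**Figure D2:**
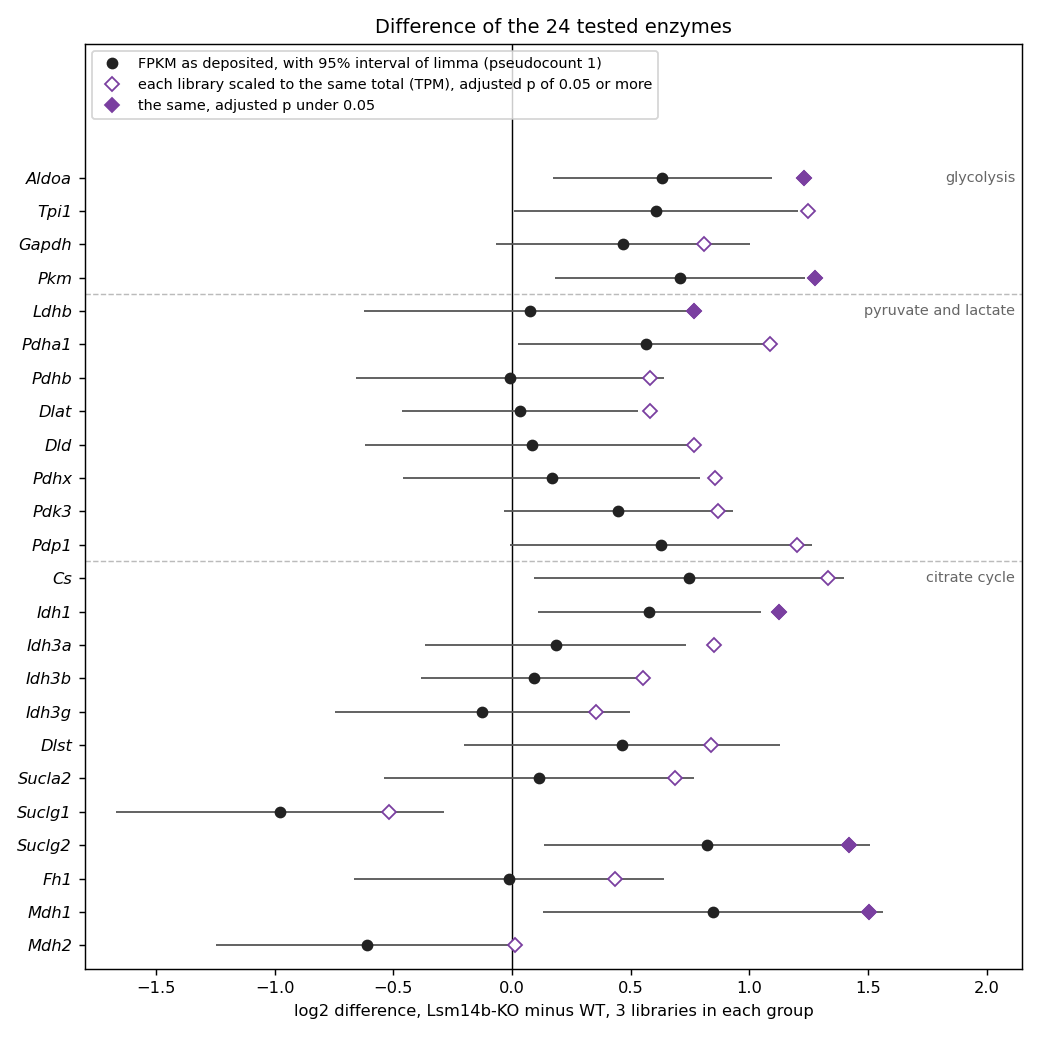
Log2 differences (Lsm14b-KO minus WT, 3 libraries per group) of the 24 tested enzymes, as deposited (filled circles with the 95% interval of limma) and after scaling every library to the same total (diamonds, filled where the adjusted p was under 0.05). Aldoa, Tpi1 and Pkm lie right of 0, as does Gapdh, which entered the test only through high Lsm14b-KO values, the citrate cycle enzymes run from -0.98 for Suclg1 to 0.85 for Mdh1, and scaling moves every enzyme to the right.

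The smallest adjusted p-values belonged to Suclg1, Aldoa and Pkm. The log2 difference of Suclg1 was -0.98 (95% interval -1.67 to -0.29, adjusted p 0.0521 in limma), that of Aldoa 0.63 (0.17 to 1.09, adjusted p 0.0565), and that of Pkm 0.71 (0.18 to 1.23, adjusted p 0.0597). In Idh1 it was 0.58 (0.11 to 1.05, adjusted p 0.0760), in Suclg2 0.82 (0.14 to 1.51, adjusted p 0.0817), and in Mdh1 0.85 (0.13 to 1.56, adjusted p 0.0842). Cs had 0.75 (0.09 to 1.40, adjusted p 0.0919), Pdha1 0.56 (0.03 to 1.10, adjusted p 0.114) and Tpi1 0.61 (0.01 to 1.20, adjusted p 0.123). In each of these 9 genes the genotypes did not overlap and the unadjusted interval left out 0. Over all tested genes 19.1% lay apart as higher and 26.0% as lower, and 39.4% had an unadjusted p under 0.05 in limma. For Mdh2 the log2 difference was -0.61 (-1.25 to 0.02, adjusted p 0.135).

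In the deposited values, the 4 most abundant of the 40 enzymes had log2 differences near 0, with intervals that span either direction. Ldhb had a log2 difference of 0.07 (-0.62 to 0.77, adjusted p 0.863 in limma), Dld 0.08 (-0.62 to 0.79, adjusted p 0.848) and Pdhx 0.17 (-0.46 to 0.79, adjusted p 0.654). For Idh3a it was 0.18 (-0.37 to 0.73, adjusted p 0.577). Among the other subunits of the pyruvate dehydrogenase complex it was 0.03 for Dlat (-0.46 to 0.53, adjusted p 0.917) and -0.01 for Pdhb (-0.66 to 0.64, adjusted p 0.982). The remaining log2 differences lay between -0.13 for Idh3g and 0.63 for Pdp1, with adjusted p from 0.131 to 0.974. Scaled to a common total, the 4 most abundant had log2 differences of 0.77 (Ldhb), 0.77 (Dld), 0.86 (Pdhx) and 0.85 (Idh3a). The median of all tested genes was then 0.40, and of these 4 only Ldhb passed (adjusted p 0.0300 in limma).

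These calls depended on the scaling. The FPKM sums were lower in the Lsm14b-KO libraries, so that scaling to a common total raises their values. With the libraries brought to a common total (TPM), the median log2 difference of all tested genes moved by 0.48, to 0.40, and 6 of the 24 enzymes were called higher against 13.0% of all tested genes: Aldoa, Pkm, Ldhb, Idh1, Suclg2 and Mdh1. The adjusted p of Ldhb was then 0.0300 at a log2 difference of 0.77, and that of Suclg2 0.0164 at 1.42. Quantile normalization called 5 higher (Aldoa, Pkm, Ldhb, Suclg2 and Mdh1) against 8.44% of all, and a correction for transcript length and GC content called 2 higher (Aldoa and Idh1) against 9.10%. Under each of the 4 scalings the median of the 22 enzymes (without Gapdh and Dlst) lay above that of all tested genes, by 0.25 as deposited, 0.45 with TPM, 0.56 with quantile normalization and 0.30 with the length and GC correction. Without Lsm14b-KO replicate 1, 6 enzymes were called higher (Aldoa, Tpi1, Pkm, Cs, Idh1 and Mdh1) against 18.3% of all tested genes, and Suclg1 was called lower, against 28.7%. Without WT replicate 3 Suclg1 alone was called lower, against 6.99% of all tested genes.

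Ratios of a pair of genes within a library do not depend on how that library is scaled, and were taken as a description with no test. The ratio of Mdh1 to Mdh2 was 0.831, 1.07 and 1.26 in WT and 2.19, 3.30 and 4.19 in Lsm14b-KO. The cytosolic mRNA thus exceeded the mitochondrial one in every Lsm14b-KO library by more than in any WT library. The ratio of Suclg2 to Suclg1, a pair chosen after the values were seen, was 1.24, 0.661 and 3.04 in WT and 12.5, 7.50 and 4.14 in Lsm14b-KO. The ratio of Pdha1 to Pdhb was 0.554, 0.466 and 0.254 in WT and 0.954, 0.691 and 0.563 in Lsm14b-KO, where the nearest libraries were almost equal. The ratios of Sucla2 to Suclg2, Idh3a to Idh3b and Pdhx to Dlat overlapped between the genotypes, the last 2 of these also chosen after the values were seen. Transcript length and GC content could still move such ratios: with both corrected for, the log2 difference was 0.97 for Mdh1 and -0.40 for Mdh2.

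**Figure D3:**
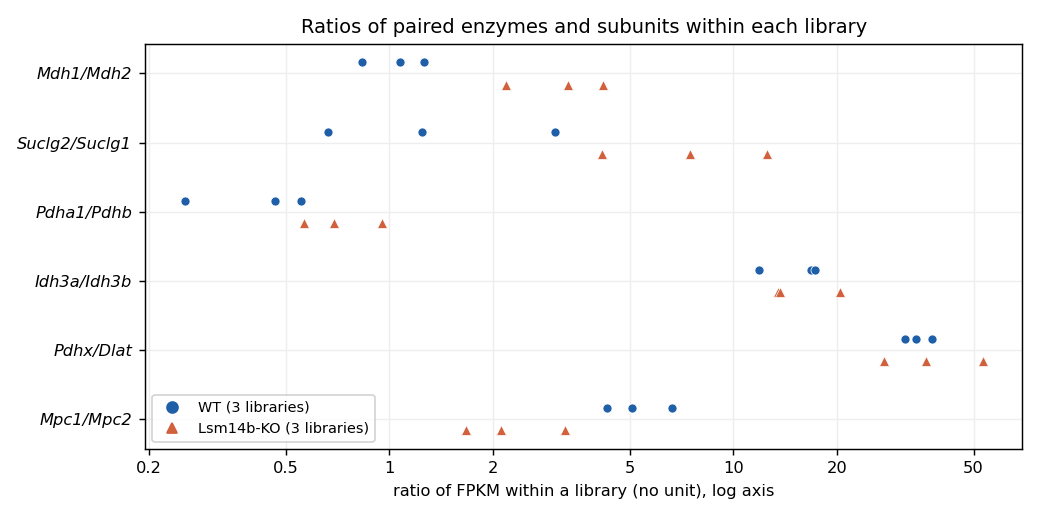
Ratio of the FPKM of paired enzymes or subunits (log axis, no unit) in each WT (circles) and Lsm14b-KO (triangles) library. Mdh1/Mdh2 runs from 0.831 to 1.26 in WT and from 2.19 to 4.19 in Lsm14b-KO, whereas Idh3a/Idh3b and Pdhx/Dlat overlap.

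The genes around these enzymes were read from a list of 63, of which 62 were in the table and 22 reached the minimum for testing. Of these 22, Pgam5, Aco1 and Me2 reached it only in Lsm14b-KO libraries and Rpia only in a WT library. The calls counted next include Pgam5. In that wider list 2 of the 22 passed the test as higher and 1 as lower in Lsm14b-KO, beside the 6.38% and 15.2% of all tested genes given above. The lower one was Mpc1, a subunit of the mitochondrial pyruvate carrier that brings pyruvate to the dehydrogenase complex (chromosome 17, 8282904 to 8297661, plus strand, overlapping 4930506C21Rik on the other strand, with 2 pseudogene copies). It was at 110.3, 112 and 97.5 FPKM in WT and at 63.2, 22.2 and 31.2 FPKM in Lsm14b-KO. All Lsm14b-KO libraries lay below the WT range, with replicate 1 nearest to it, and the log2 difference was -1.56 (-2.48 to -0.64, adjusted p 0.0304 in limma). It kept its call with TPM scaling (-0.88, adjusted p 0.0426) and with the length and GC correction (-0.89, adjusted p 0.0287). It lost it with quantile normalization (adjusted p 0.0579), with no minimum FPKM (0.0686), and without any 1 of the libraries other than Lsm14b-KO replicate 1 (0.0517 to 0.121). Its partner subunit Mpc2 was at 21.7, 16.8 and 22.7 FPKM in WT and at 19.5, 13.3 and 14.8 FPKM in Lsm14b-KO (adjusted p 0.345). The ratio of Mpc1 to Mpc2, chosen after the values were seen, was 5.08, 6.64 and 4.30 in WT and 3.24, 1.67 and 2.11 in Lsm14b-KO.

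Both genes called higher were isozymes or relatives of glycolytic enzymes. Ldhc, the lactate dehydrogenase typical of the testis (chromosome 7, 46861203 to 46878142, plus strand), rose from 0.242, 1.68 and 2.09 FPKM in WT to 8.29, 5.71 and 5.95 FPKM in Lsm14b-KO. The log2 difference was 1.80 (0.98 to 2.62, adjusted p 0.0137 in limma), and the call was lost only without Lsm14b-KO replicate 3 (adjusted p 0.0596). Even so, Ldhc remained at most 0.00176 of Ldhb within a library. Pgam5, a mitochondrial protein phosphatase of the phosphoglycerate mutase family rather than a glycolytic enzyme, was at 0.418, 0.487 and 0.539 FPKM in WT and at 1.15, 2.001 and 1.15 FPKM in Lsm14b-KO. Its log2 difference was 0.70 (0.21 to 1.18, adjusted p 0.0493 in limma), at the edge of the threshold, and it was called in 4 of 13 alternatives, and the fit without Lsm14b-KO replicate 1 was the only one with a library left out that kept the call. It reached the minimum for testing only in Lsm14b-KO libraries.

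**Figure D4:**
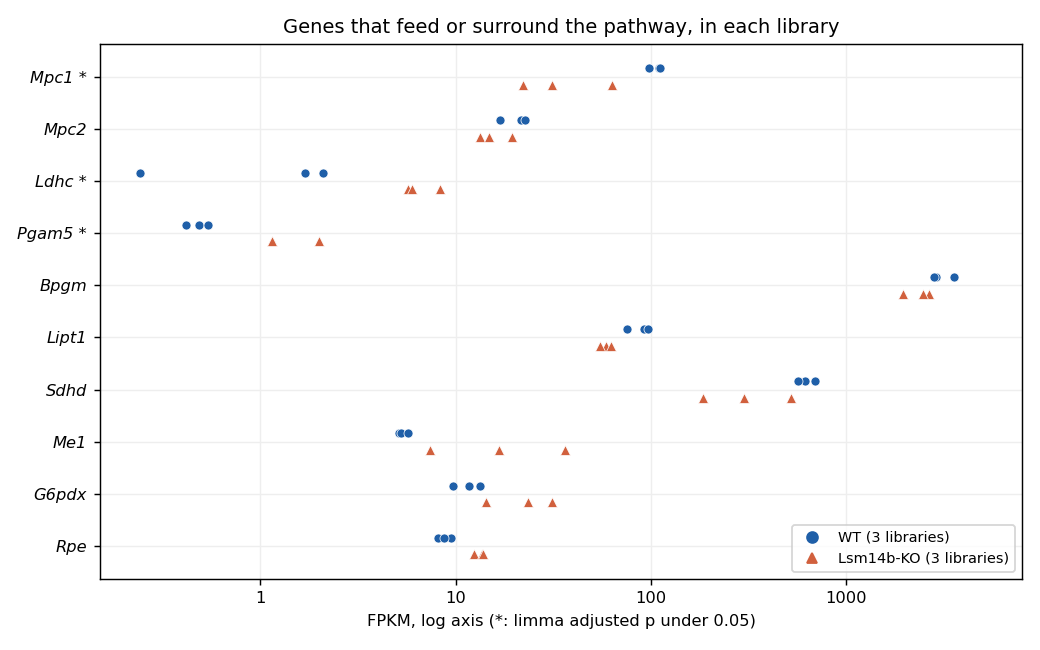
FPKM (log axis) of genes that feed or surround the pathway in each WT (circles) and Lsm14b-KO (triangles) library; stars mark an adjusted p under 0.05 in limma. Mpc1 lies at 97.5 to 112 FPKM in WT and at 22.2 to 63.2 FPKM in Lsm14b-KO, and Ldhc lies higher in Lsm14b-KO.

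Several other neighbours were abundant. Bpgm, the bisphosphoglycerate mutase that diverts a glycolytic intermediate, was at 2887, 2828 and 3575 FPKM in WT and at 1954, 2644 and 2476 FPKM in Lsm14b-KO, the level nearest to that of Ldhb in the wider list. Its groups did not overlap, but the log2 difference of -0.40 (-1.02 to 0.23) did not pass the test (adjusted p 0.296 in limma), and with TPM scaling it was 0.30. Sdhd, a membrane anchor of succinate dehydrogenase, was at 691, 613 and 566 FPKM in WT and at 523, 185 and 301 FPKM in Lsm14b-KO (log2 difference -1.01, adjusted p 0.106, and -0.32 with TPM scaling). Without Lsm14b-KO replicate 1 Sdhd was called lower (adjusted p 0.00263). The catalytic subunit Sdha was at 1.19 to 2.05 FPKM. Lipt1, a lipoyltransferase needed for lipoate on the dehydrogenase complexes, was at 91.6, 75.7 and 97.1 FPKM in WT and at 59.2, 54.7 and 62.3 FPKM in Lsm14b-KO (-0.57, adjusted p 0.149, and 0.11 with TPM scaling). Bpgm, Sdhd and Lipt1 separated by genotype in the deposited values without passing the test, and Sdha overlapped.

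Of the malic enzyme and the pentose phosphate pathway, which can form NADPH, no gene passed the test. Me1, the cytosolic malic enzyme, which has 3 near-identical copies, was at 5.16, 5.24 and 5.72 FPKM in WT and at 7.39, 36.2 and 16.6 FPKM in Lsm14b-KO (log2 difference 1.47, adjusted p 0.0637 in limma), and its adjusted p was 0.00118 without Lsm14b-KO replicate 1. G6pdx, which opens the pentose phosphate pathway, was at 11.8, 9.64 and 13.3 FPKM in WT and at 14.4, 31.1 and 23.4 FPKM in Lsm14b-KO (0.88, adjusted p 0.0862). It passed with TPM scaling (1.54, adjusted p 0.0494), with quantile normalization (adjusted p 0.0473) and without Lsm14b-KO replicate 1 (adjusted p 0.00419). In both genes Lsm14b-KO replicate 1 lay nearest to the WT libraries. Rpe, an epimerase of the same pathway, was at 8.10, 9.52 and 8.68 FPKM in WT and at 12.4, 13.6 and 13.8 FPKM in Lsm14b-KO (0.55, adjusted p 0.105), and passed with TPM scaling (adjusted p 0.0354), quantile normalization (0.0373) and the length and GC correction (0.0360). Rpia, the isomerase beside it, lay the other way, at 0.837, 1.17 and 0.646 FPKM in WT and at 0.626, 0.0858 and 0.0766 FPKM in Lsm14b-KO (-0.60, adjusted p 0.109), with no overlap. However, Rpia reached the minimum for testing only in a WT library. Pgd, the second NADPH-forming enzyme of the pathway, overlapped between the groups at 0 to 0.578 FPKM, and H6pd was at 0 in 5 of 6 libraries. Transketolase (Tkt) and Pgls stayed under 1 FPKM with overlapping groups, and Taldo1 was at 0.2501, 0.217 and 0.721 FPKM in WT and at 0.745, 0.898 and 0.796 FPKM in Lsm14b-KO.

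Transporters that bring sugars or monocarboxylates into the cell were low. Slc2a1, a glucose transporter, was at 0.246 to 0.504 FPKM over the 6 libraries, and Slc2a3 and Slc2a8 were at 0 in all of them. Among the monocarboxylate transporters, Slc16a1 was at 0.137 to 0.423 FPKM, Slc16a3 and Slc16a6 were at 0, and Slc16a7 was at 0.468, 0.717 and 0.794 FPKM in WT and at 0.176, 0.300 and 0.215 FPKM in Lsm14b-KO. None of these reached the minimum for testing.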

How the data were processed

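RNA-Seq of 3 WT and 3 Lsm14b-KO samples of 20 GV-stage FGOs each was analysed, grouped by the sample titles. Per the labels, RNA was amplified by Smart-seq2, and reads were aligned to mm10 with TopHat2 (2.0.13). The authors deposited FPKM values per gene, computed with Cufflinks (2.2.1), in a table of 24255 genes; the annotation is not given in the sources used here. The table's columns of fold changes, p-values and q-values, which hold the authors' own Cuffdiff comparison, were not used. The labels name 2 different library kits, and strandedness was not given. A spreadsheet had turned 27 symbols into dates.

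Log2(FPKM + 1) values of the 6398 genes that reached 1 FPKM in any library were fitted with limma 3.58.1 in R 4.3.3 (lmFit and eBayes, trend over intensity) on genotype alone. Tests were two-sided, with Benjamini-Hochberg adjustment over all 6398 genes. The pseudocount understates differences of genes with low values. The table holds no counts, so no count model was used. Relative depth and fragment numbers came from the steps between low FPKM values. Of 1346 low genes, 87.4% fitted whole multiples up to 12, within 0.06 times the multiple. That allowance widens with the multiple up to a cap, so larger fragment numbers are less certain. Fragment numbers cover counting error only. All 40 members were named, with other pathway genes from a list, giving values for those that passed the test and those beside which a result is read. The members and the lists were chosen with earlier results of these data known. Coordinates are those of GENCODE vM21 (GRCm38, the assembly of mm10). Length and GC content were found for 98.8% of tested genes. Copies were searched with blastn 2.17.0 (95% identity, 200 nt). The fit was tested on simulated data. Alternatives were a pseudocount of 0.1, no minimum, a mean of at least 1 FPKM, TPM scaling, quantile normalization, the length and GC correction (a loess fit subtracted in each library), no intensity trend, a replicate block, and leaving out each library.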

Additional observations from a re-analysis of the deposited data

How the results depend on the processing

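Over all genes 1383 were called. The number was 720 with no minimum FPKM, and 321 to 2952 when 1 library was left out, the lowest without Lsm14b-KO replicate 3 and the highest without Lsm14b-KO replicate 1. Of the 24 tested enzymes 0 were called as deposited, 6 with TPM scaling, 5 with quantile normalization, 2 with the length and GC correction, and 0 to 7 with a library left out, the 7 without Lsm14b-KO replicate 1. The step medians of this section include Gapdh and Dlst where tested, which reached 1 FPKM only in Lsm14b-KO libraries. Without them the glycolysis median was 0.63 as deposited, 1.25 with TPM scaling and 0.83 with quantile normalization. That of the citrate cycle was then 0.11, 0.69 and 0.25. With them, the median log2 difference of the glycolysis enzymes was 0.62, and moved to 0.81 at a pseudocount of 0.1, 0.11 with no minimum FPKM, 1.24 with TPM scaling and 0.82 with quantile normalization. That of the pyruvate and lactate enzymes was 0.13, and moved to 0.81 with TPM scaling, 0.63 with quantile normalization and 0.37 with the length and GC correction. That of the citrate cycle enzymes was 0.15, and moved to 0.76 with TPM scaling, 0.34 with quantile normalization and 0.30 with the length and GC correction. With 1 library left out, the 3 medians ran from 0.56 to 0.75, from 0.082 to 0.27 and from 0.0035 to 0.29, the last lowest without Lsm14b-KO replicate 2 and highest without Lsm14b-KO replicate 1. The share of calls that were higher in Lsm14b-KO was 29.5% as deposited, 63.2% with TPM scaling, 42.4% with quantile normalization and 41.2% with the length and GC correction.

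Of 332 log2 differences of single enzymes under the alternatives, 288 kept their direction and side of the threshold, 21 kept their direction and passed it, and 23 changed sign, all in enzymes that were not called. With TPM scaling the changed signs were Pdhb 0.58, Idh3g 0.35, Fh1 0.44 and Mdh2 0.0108. With the length and GC correction they were Pdhb 0.33, Dlat -0.15 and Idh3g 0.21. Pdhb was 0.16 with quantile normalization, and Fh1 was 0.0405 at a pseudocount of 0.1. With 1 library left out, the log2 differences whose sign changed ranged as follows: Ldhb -0.13 to 0.31, Pdhb -0.17 to 0.25, Dlat -0.0667 to 0.18, Dld -0.0557 to 0.28, Idh3g -0.39 to 0.0637, Sucla2 -0.0601 to 0.35 and Fh1 -0.31 to 0.21. The cause of these changes was not tested.

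Same-numbered WT and Lsm14b-KO libraries deviated from their group means with a correlation of 0.19, -0.13 and 0.02, so the numbers were not taken to pair samples. With the number as a replicate block 1244 genes and 0 enzymes were called, and the medians of the 3 steps stayed at 0.62, 0.13 and 0.15. Precision was limited by 3 libraries per group, and below 1 FPKM by a few fragments per gene, which left 16 enzymes untested.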
